A study of Mus musculus with 4 samples.

Results

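Srebf2 and 6 enzymes of cholesterol synthesis, Hmgcs1, Idi1, Fdps, Fdft1, Sqle and Lss, were described in mouse ovarian cancer cells with and without knockdown of USP9X. The members were the rows of the deposited gene table that carry one of these symbols, 7 of 22063 rows, and all 7 passed the filter on low counts that left 11448 genes for testing. Messenger RNA was sequenced from ID8 cells, an ovarian cancer line derived from mouse ovarian surface epithelium. The shCtrl group held 2 libraries of cells with a control shRNA, whose genotype is labelled WT, and the shUSP9X group held 2 libraries of cells with an shRNA against USP9X, a deubiquitinase, labelled as the knockdown. The study lists more than one mouse shRNA against USP9X, and which of them these cells carried, their treatment, their oxygen level and whether they were a clone are not given in the sources used here. Nothing states that the libraries of a group came from separate cultures, so the p-values below measure only the spread between these libraries, which may be technical.

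Cholesterol is made from acetyl-CoA by way of mevalonate, farnesyl diphosphate, squalene and lanosterol. When sterols in the endoplasmic reticulum are scarce, SCAP carries the membrane-bound precursor SREBP2, the product of Srebf2, to the Golgi, where it is cleaved, and the released fragment enters the nucleus and activates genes of this pathway. When sterols are plentiful, the INSIG proteins hold SCAP back. SREBP2 binds sterol regulatory elements, which in many of its target promoters lie near CCAAT boxes, bound by NF-Y, and GC boxes, bound by Sp1. Products of the branch at farnesyl diphosphate also serve protein prenylation, ubiquinone and dolichol.

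The promoter sequences are shown because SREBP2 acts through letters in these regions and because the genes beside them differed in direction. Of the 7 genes, 4 matched an entry of the RefSeq promoter table (GRCm38.p6), and Fdps, Fdft1 and Sqle did not. Each sequence is the 250 bases before the RefSeq start of the gene, 5′ to 3′ on the gene's strand, which is the plus strand for all 4. Capitals mark the sterol regulatory element TCACNCCAC and the CCAAT box, which reads ATTGG where it lies on the opposite strand.
Hmgcs1, chr13:119690101-119690350: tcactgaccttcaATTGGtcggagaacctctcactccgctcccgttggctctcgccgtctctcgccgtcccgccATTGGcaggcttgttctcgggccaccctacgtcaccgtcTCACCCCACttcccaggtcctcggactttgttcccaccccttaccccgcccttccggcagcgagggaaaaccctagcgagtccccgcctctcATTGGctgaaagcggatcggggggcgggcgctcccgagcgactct
Idi1, chr13:8885356-8885605: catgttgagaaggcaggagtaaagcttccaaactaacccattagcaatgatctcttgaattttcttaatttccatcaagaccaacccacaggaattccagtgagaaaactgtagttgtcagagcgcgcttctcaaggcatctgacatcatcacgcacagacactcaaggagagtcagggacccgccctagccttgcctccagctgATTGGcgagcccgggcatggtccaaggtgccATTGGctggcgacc
Lss, chr10:76531355-76531604: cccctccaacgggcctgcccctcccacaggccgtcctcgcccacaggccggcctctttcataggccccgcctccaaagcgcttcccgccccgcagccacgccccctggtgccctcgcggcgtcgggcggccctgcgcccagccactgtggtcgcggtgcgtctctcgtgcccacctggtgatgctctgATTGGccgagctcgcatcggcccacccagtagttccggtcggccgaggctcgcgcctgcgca
Srebf2, chr15:82147019-82147268: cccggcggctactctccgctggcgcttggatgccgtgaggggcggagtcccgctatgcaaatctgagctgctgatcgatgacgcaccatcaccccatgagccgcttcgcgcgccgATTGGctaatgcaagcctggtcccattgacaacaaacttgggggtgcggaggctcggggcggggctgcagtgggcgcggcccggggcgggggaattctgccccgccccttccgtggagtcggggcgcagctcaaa
Both strands were searched, and the 3 motifs searched (TCACNCCAC, CCAAT and GGGCGG) do not overlap each other in these windows. The Hmgcs1 window held TCACCCCAC on the gene's strand, from position -137 to -129 relative to the start, with 3 CCAAT boxes on the opposite strand. The Idi1 window held 2 CCAAT boxes, and the Lss and Srebf2 windows held 1 each, all on the opposite strand. The GC box GGGCGG was found in all 4 windows, with 4 matches before Srebf2. Among the 32851 promoters of the table, 346 (1.05%) held TCACNCCAC in a window of the same length, 33.8% held a CCAAT box and 32.7% held GGGCGG. Among the other 17 synthesis enzymes described below, 15 matched the table, of which 0 held TCACNCCAC, 13 a CCAAT box and 12 GGGCGG. An enzyme was counted if any of its promoter entries held the motif, whereas the percentages above are shares of single promoters. The motif matches are letters in a window and were not tested for binding. Only exact matches were marked and counted, so a promoter without TCACNCCAC may still hold a variant of the element. The Srebf2 window, for example, holds tcaccccat, which differs from TCACNCCAC in its last base.

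Sequencing depth, as the sum of the estimated counts, was 17232006 for shCtrl replicate 1, 15611363 for shCtrl replicate 2, 19978889 for shUSP9X replicate 1 and 17021261 for shUSP9X replicate 2. Usp9x, the targeted gene (ENSMUSG00000031010, chrX:13071498-13173328), checks the labels. Its levels were 298.1 and 281.6 CPM in shCtrl (counts scaled to library size, here by the TMM method of edgeR) and 19.7 and 20.5 CPM in shUSP9X. The groups were far apart, with a log2 fold change of -3.85 (adjusted p = 4.7e-26, from the quasi-likelihood test of edgeR, adjusted by the method of Benjamini and Hochberg across the table). Each log2 fold change below is that of shUSP9X over shCtrl from this fit, and each adjusted p is from the same test.

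Among 15 markers of ID8 cells and their tissue of origin, 10 had over 10 counts in all 4 libraries, among them Krt8, Krt18, Krt19, Msln, Wt1 and Vim. Krt7, Epcam and Pax8 had at most 9 counts in any library. The shUSP9X replicate 2 library stood apart in another way. It held 635 counts of Alb, the gene of serum albumin, where the other 3 libraries held 0. It also held 47 counts of Apoa1 and 29 of Ttr, while Cyp7a1, which defines bile acid synthesis in hepatocytes, was at 0 in all 4 libraries. The 4 liver markers summed to 0.168 and 0 FPKM (fragments scaled for transcript length and library size) in shCtrl and to 0.145 and 22.4 FPKM in shUSP9X. Of all genes, 18 had at least 20 counts in that library and at most 3 in each of the others, together 0.00783% of its counts. Without this library Fdps, Lbr, Abcg4, Lpcat3, Gpam and Fnta lost their calls, and their values are given where each is described. Genes described below also lost calls without each of the other libraries, and a lost call does not show how far a value moved. Leaving out shUSP9X replicate 1, for example, took Nsdhl from a log2 fold change of 0.278 to 0.243 and Fnta from 0.166 to 0.19. Abcg4, Lpcat3, Gpam and Fnta are named here after their values were seen. Leukocyte markers also moved with the groups. Their sum over 9 genes was 3.49 and 3.58 FPKM in shCtrl and 8.35 and 6.93 FPKM in shUSP9X, with Cd68 the most abundant gene. Ptprc, the pan-leukocyte marker, was at 0 in both controls and had 29 and 18 counts in the knockdown libraries. The myeloid markers Adgre1 (58 and 59 counts), Itgam (72 and 75) and Csf1r (17 and 13) were likewise found in the knockdown libraries and at 0 in both controls. Cd3e and C1qa were at 0 throughout, and Lyz2 had at most 2 counts. Fibroblast markers (5 genes, Dcn the most abundant) went the other way, with sums of 114 and 113 FPKM against 73.6 and 72.2 FPKM, and Lum and Thy1 at 0. Endothelial markers (4 genes) summed to 2.40 and 2.84 FPKM in shCtrl and 1.53 and 1.63 FPKM in shUSP9X, nearly all of it Tek, with the defining markers Cdh5 and Kdr at 0 throughout. Markers of steroid-making ovarian cells (7 genes) summed to 1.15 and 1.88 FPKM against 1.02 and 0.818 FPKM. Star, the mitochondrial cholesterol carrier and the most abundant of them, had 80 and 61 counts in shCtrl and 39 and 32 counts in shUSP9X, while Cyp17a1, Hsd3b1, Cyp19a1 and Foxl2 were at 0 throughout. The 15 ID8 markers summed to 2310 and 2370 FPKM against 2850 and 2800 FPKM, with Vim the most abundant, but they did not move together. Vim, Krt8, Krt18 and Upk1b lay higher in shUSP9X, whereas Msln (225 and 236 against 164 and 161 FPKM), Wt1 (170 and 181 against 122 and 120 FPKM) and Cdh2 (22.9 and 22.8 against 16.7 and 15.2 FPKM) lay lower. Muc16 had 33 and 43 counts in shCtrl and 1 and 0 counts in shUSP9X. The part of these genes in the results below was not tested.

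At an adjusted p under 0.05, 2 of the 7 members were lower in shUSP9X (Hmgcs1 and Idi1) and 4 were higher (Fdps, Fdft1, Sqle and Lss), while Srebf2 did not pass. Of all genes tested, 33.6% were called lower and 33.8% higher by the same rule, so a call is common in this comparison. The median log2 fold change of the members was 0.20, against 0.00 over all genes tested. For all 7 members the libraries of the groups did not overlap in CPM, with 2 lower and 5 higher in shUSP9X, and the same held for 41.0% of all genes in the lower and 41.2% in the higher direction. The changes were small. By the rule of the study's methods, a fold change above 1.5 at an unadjusted p under 0.05, 0 members were lower and 0 higher. Of all genes tested, 18.7% were lower and 10.8% higher by that rule. The rule was applied here to the edgeR fit, whereas the study used DESeq2. In these bulk libraries, fewer cells of a kind and less RNA per cell cannot be told apart.

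**Figure D1:**
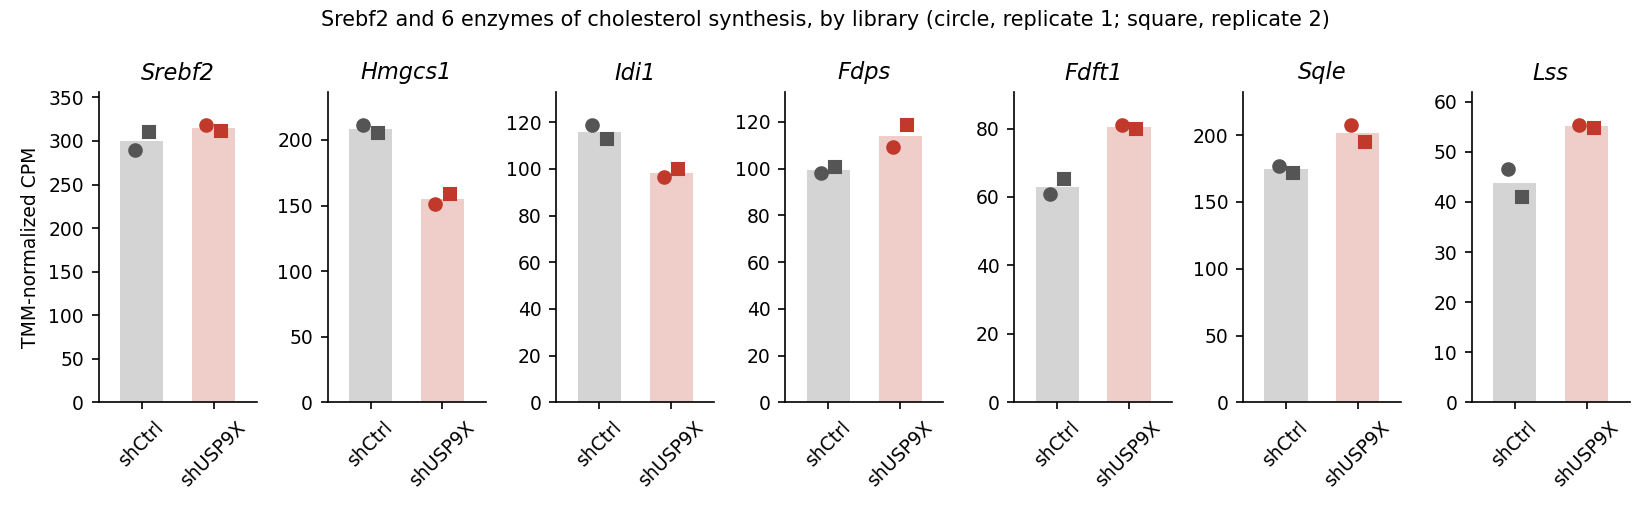
TMM-normalized CPM (vertical axis, from 0, a scale for each gene) of Srebf2 and the 6 enzymes in the shCtrl and shUSP9X libraries, with circles for replicate 1, squares for replicate 2 and bars for the mean of 2 libraries. Hmgcs1 and Idi1 lie lower in both shUSP9X libraries, and Fdps, Fdft1, Sqle and Lss lie higher.

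Srebf2 (ENSMUSG00000022463, chr15:82147181-82205379, plus strand, GRCm38) encodes the regulator itself. Its levels were 289.1 and 310.1 CPM in shCtrl and 318.0 and 311.0 CPM in shUSP9X. The groups lay next to each other, with the lower shUSP9X library barely above the higher shCtrl library. The log2 fold change was 0.07 (95% interval -0.01 to 0.15, adjusted p = 0.122), an interval that leaves room for a rise of up to 1.11-fold. Without shCtrl replicate 2, the log2 fold change was 0.13 and passed the test (adjusted p = 0.00249, edgeR).

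Hmgcs1 (ENSMUSG00000093930, chr13:119690379-119708260, plus strand) encodes the cytosolic HMG-CoA synthase, which makes HMG-CoA, the precursor of mevalonate. It was measured at 211.2 and 205.3 CPM in shCtrl and 151.1 and 158.6 CPM in shUSP9X. Both knockdown libraries lay well below both controls, and the mean fell from 208.3 ± 4.20 to 154.9 ± 5.36 CPM (SD, n = 2 each). In this fit it was the largest change among the 7 genes, at 0.743-fold (log2 fold change -0.43, 95% interval -0.52 to -0.34, adjusted p = 3.1e-09, edgeR). With each library's trends on GC content and transcript length removed, a step described further on, it was at -0.01 and did not pass (adjusted p = 0.781). Its promoter is the only one of the 4 shown above with an exact match to TCACNCCAC, and variants of the element were not searched for.

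Idi1 (ENSMUSG00000058258, chr13:8885501-8892451, plus strand) encodes the isomerase that interconverts the C5 building blocks isopentenyl and dimethylallyl diphosphate. Its levels were 118.7 and 112.6 CPM in shCtrl and 96.3 and 100.0 CPM in shUSP9X. The groups were separate and the fall was smaller than that of Hmgcs1, at 0.848-fold (log2 fold change -0.24, 95% interval -0.34 to -0.13, adjusted p = 2e-04, edgeR). Its direction turned to a called rise when the same trends were removed (log2 fold change 0.32, adjusted p = 1.4e-06).

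Fdps (ENSMUSG00000059743, chr3:89093588-89101959, minus strand) encodes the synthase of farnesyl diphosphate, where the sterol and prenylation branches part. It was at 98.0 and 100.7 CPM in shCtrl and at 109.3 and 118.5 CPM in shUSP9X. All shUSP9X values lay above all shCtrl values, with the wider spread in shUSP9X. The log2 fold change was 0.20 (95% interval 0.09 to 0.30, adjusted p = 0.00183, edgeR), and with the trends removed it was -0.10 and did not pass (adjusted p = 0.0800). Without shUSP9X replicate 2, the library with the liver transcripts, the call was lost and the log2 fold change was 0.15, in the same direction. That fit has fewer libraries, and shUSP9X replicate 1 alone also lay above both controls. The part of the liver transcripts in this was not tested. Without shUSP9X replicate 2 the other 6 members kept the direction and the side of the threshold given here.

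Fdft1, Sqle and Lss catalyse the steps that follow on the sterol branch, and all of them rose. Fdft1 (ENSMUSG00000021273, chr14:63145150-63179578, minus strand), the squalene synthase, was at 60.8 and 65.2 CPM in shCtrl and at 81.0 and 80.0 CPM in shUSP9X. The groups were clearly separate, with a 1.28-fold rise (log2 fold change 0.35, 95% interval 0.23 to 0.48, adjusted p = 8.5e-06, edgeR). Among the members it was the gene whose deposited counts were not whole numbers, and its exons overlap those of Ctsb on the opposite strand. Sqle (ENSMUSG00000022351, chr15:59315077-59331192, plus strand), the squalene epoxidase and a control point of the late pathway, was at 176.9 and 171.8 CPM in shCtrl and at 207.3 and 195.0 CPM in shUSP9X. It was higher in both knockdown libraries, by 1.15-fold (log2 fold change 0.21, 95% interval 0.12 to 0.30, adjusted p = 0.00021, edgeR). Lss (ENSMUSG00000033105, chr10:76531588-76557138, plus strand), which closes the ring system to give lanosterol, was at 46.5 and 41.0 CPM in shCtrl and at 55.3 and 54.8 CPM in shUSP9X. It was the least abundant member in CPM, and rose 1.26-fold (log2 fold change 0.33, 95% interval 0.18 to 0.48, adjusted p = 0.00025, edgeR). Exons of Hmgcs1, Idi1 and Lss overlap other annotated genes on the opposite strand and those of Fdps a gene on the same strand, and the same was found for Cyp51, Ggps1, Lbr and Tm7sf2 among the enzymes below. Whether the counting used strand is not given in the sources used here, so reads from such partners cannot be told apart.

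On the FPKM scale, which divides by transcript length and allows levels of different genes to be compared, Fdps was the most abundant member in shCtrl with a mean level of 81.3 FPKM. Hmgcs1, Sqle and Srebf2 followed at 64.2, 63.9 and 62.4 FPKM, and their libraries overlapped, so their order was not resolved. Idi1 lay at 48.0, Fdft1 at 20.6 and Lss at 9.47 FPKM, each apart from its neighbours in both libraries. In shUSP9X the order was Fdps (91.2 FPKM), Sqle (72.3), Srebf2 (62.4), Hmgcs1 (48.6), Idi1 (38.3), Fdft1 (26.4) and Lss (11.7), with no overlap between neighbours. Hmgcs1 thus moved from among Sqle and Srebf2 to below both. The ratio of Sqle to Hmgcs1 counts within a library, which needs no scaling between libraries, was 0.838 and 0.837 in shCtrl and 1.37 and 1.23 in shUSP9X. The ratio of Lss to Idi1 counts was 0.391 and 0.364 in shCtrl and 0.574 and 0.548 in shUSP9X. These ratios still carry the trends on GC content and length. With the trends removed the log2 fold changes of each pair lay closer together, at 0.11 for Sqle and -0.01 for Hmgcs1, and at 0.28 for Lss and 0.32 for Idi1, the reverse order for the second pair. With lower and higher members together, the summed level of the 7 genes was 1001 and 1007 CPM in shCtrl and 1018 and 1018 CPM in shUSP9X, a difference of 1.4%.

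The other enzymes of the pathway were taken from a hand-written list of 17 genes, of which Idi2 was left out by the filter. Of the 16 tested, 1 was lower, 12 were higher and 3 did not pass, where 33.6% of all genes were called lower and 33.8% higher. The median log2 fold change was 0.27 against 0.00 over all genes. The largest rise was that of Hsd17b7, a sterol ketone reductase, from 38.8 and 35.4 CPM in shCtrl to 57.3 and 56.8 CPM in shUSP9X (log2 fold change 0.62, adjusted p = 2.4e-08, edgeR). Its knockdown libraries lay well above both controls.

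Among the other enzymes that rose, the log2 fold changes were 0.16 for Lbr, 0.22 for Dhcr7, 0.27 for Mvk, 0.28 for Nsdhl, 0.29 for Acat2, 0.30 for Msmo1, 0.32 for Mvd and Cyp51 and 0.39 for Ebp. Acat2 is the thiolase at the head of the pathway, Mvk and Mvd are mevalonate kinase and diphosphomevalonate decarboxylase, and the rest act on lanosterol and the sterols made from it. Several of these calls did not hold under every alternative. Mvk (0.25, adjusted p = 0.0754), Mvd (0.27, adjusted p = 0.114) and Nsdhl (0.24, adjusted p = 0.0541) were not called without shUSP9X replicate 1, Mvd also not without shCtrl replicate 1 (0.25, adjusted p = 0.0906), and Lbr not without shUSP9X replicate 2 (0.15, adjusted p = 0.0619, edgeR). In DESeq2, Mvk (adjusted p = 0.0518) and Mvd (adjusted p = 0.0759) missed the threshold. On log2(FPKM + 1), limma gave 0.16 for Mvk (adjusted p = 0.0774), 0.047 for Lbr (adjusted p = 0.671) and 0.085 for Dhcr7 (adjusted p = 0.190). With the trends removed Mvk (0.04), Mvd (0.09) and Dhcr7 (0.06) were not called. Among those still called higher in that fit, Lbr was at 0.46 (adjusted p = 1.3e-09), Hsd17b7 at 1.09 and Cyp51 at 0.49, above their values here, and Acat2 at 0.14 and Ebp at 0.16, below them. Ggps1, which draws farnesyl diphosphate into geranylgeranyl diphosphate and so away from sterols, was the enzyme of the list that fell, from 47.4 and 49.7 to 31.4 and 30.2 CPM (log2 fold change -0.65, adjusted p = 3.4e-08, edgeR), and it turned to a called rise with the trends removed (0.29, adjusted p = 0.00229). Pmvk (0.03, adjusted p = 0.848), Sc5d (-0.02, adjusted p = 0.731) and Tm7sf2 (-0.61, adjusted p = 0.126, at about 2 CPM) did not pass. The value of Tm7sf2 was -0.96 without shUSP9X replicate 1 and -0.35 without shUSP9X replicate 2. Split by position, the 8 genes from Acat2 to Fdps held 2 lower and 5 higher (median log2 fold change 0.23). The 13 genes from Fdft1 to the end of the pathway held 0 lower and 11 higher (median log2 fold change 0.30). Of all genes tested, 33.6% were called lower and 33.8% higher. Ggps1, the enzyme that fell, was counted in neither stretch, and the split was not among the planned comparisons. With the trends removed the earlier stretch held 0 lower and 3 higher and the later one 1 lower and 11 higher. In that fit 25.6% of all genes were lower and 38.7% higher. The difference between these stretches was not tested. Summed over the 23 tested genes, Srebf2 included, the level was 2094 and 2119 CPM in shCtrl and 2354 and 2342 CPM in shUSP9X, a difference of 11.5%.

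**Figure D2:**
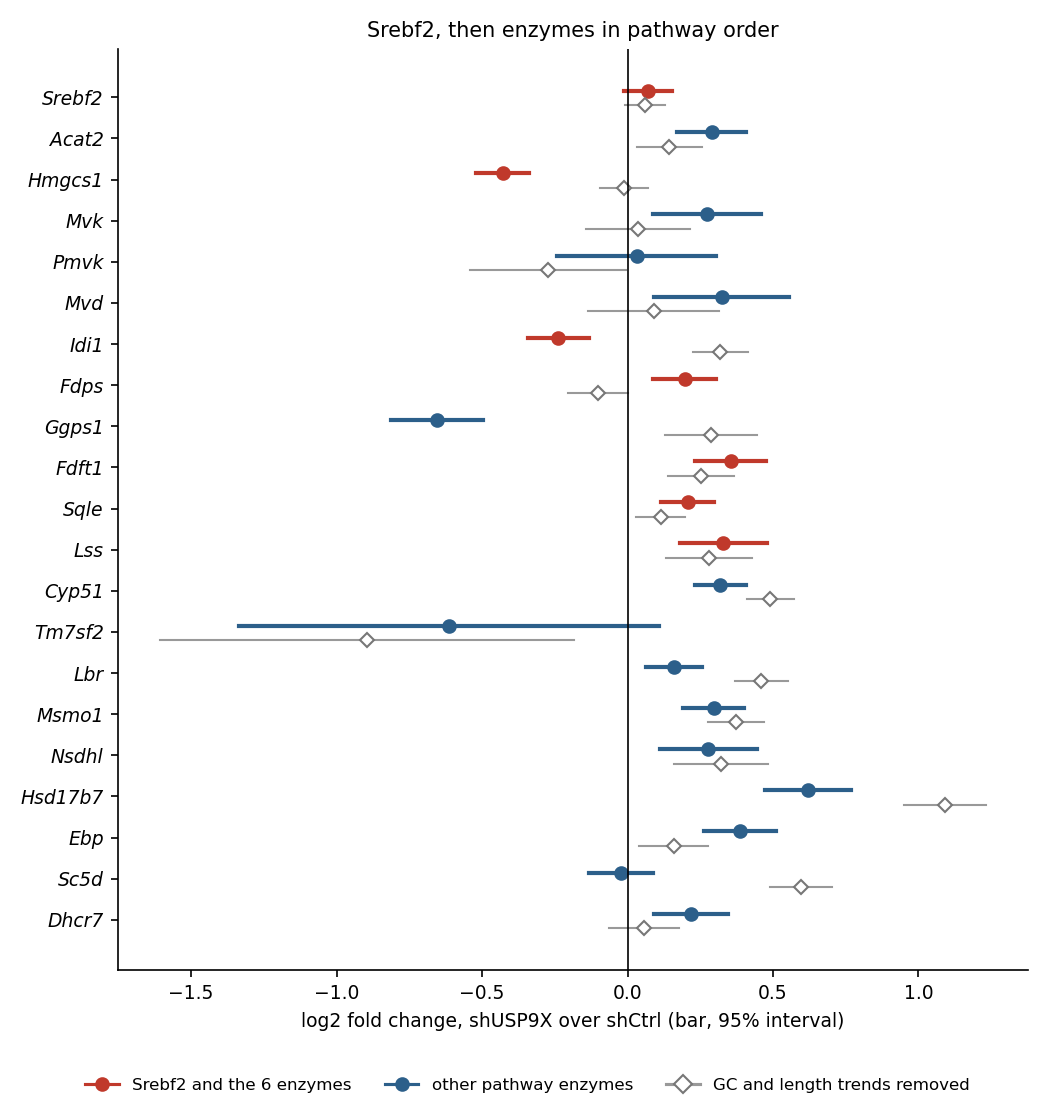
Log2 fold change of shUSP9X over shCtrl (horizontal axis) with its 95% interval for Srebf2 and the pathway enzymes named in the text, in pathway order, in filled circles (red for Srebf2 and the 6 enzymes, blue for the others). Open diamonds give the value after removal of the trends on GC content and length. Hmgcs1, Idi1 and Ggps1 are the genes whose circles and intervals lie below 0, and with the trends removed Idi1 and Ggps1 lie above it.

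The fold changes of the whole table followed the GC content of the transcripts, and the members that fell are among the AT-rich ones. Hmgcs1 has 43.1% GC and Idi1 41.9%, in the decile of the genes whose median log2 fold change was -0.41. Fdps (54.5% GC), Srebf2 (57.9%), Lss (52.2%), Fdft1 (51.8%) and Sqle (49.3%) lie in deciles with medians between 0.06 and 0.25. Across all 11430 genes with a known GC content, Spearman's rho with the log2 fold change was 0.447, and across the 23 pathway genes it was 0.27. These are descriptions across genes of the same libraries, which are not independent replicates. The 3 pathway genes that fell had 40.1 to 43.1% GC and the 16 that rose had 43.9 to 59.6%. The 4 that were not called had 42.9 to 57.9%. Among them were Sc5d (42.9% GC, log2 fold change -0.02) and Tm7sf2 (56.5% GC, log2 fold change -0.61).

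**Figure D3:**
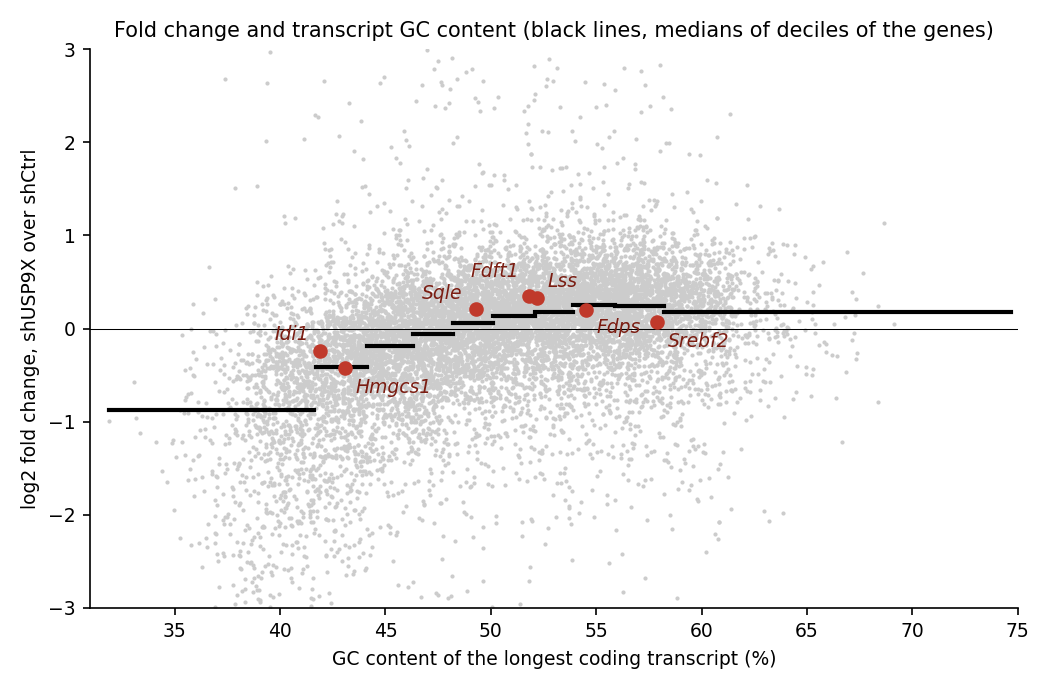
Log2 fold change of shUSP9X over shCtrl (vertical axis) against transcript GC content (horizontal axis, %) for 11214 genes within 3 log2 units of 0 (grey; another 216 lie outside), with the 7 members in red and black lines at the medians of deciles of the genes by GC content. Hmgcs1 lies on the line of its decile and Idi1 above it.

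With each library's trends on GC content and transcript length removed, 0 of the 7 members were lower and 4 higher (Idi1, Fdft1, Sqle and Lss), where 25.6% of all genes tested were lower and 38.7% higher. The median of the members was then 0.11, against 0.07 over all genes. Hmgcs1 and Fdps lost their calls and Idi1 turned from lower to higher, with the values given above. Fdft1 (0.25, adjusted p = 0.00033), Sqle (0.11, adjusted p = 0.0175) and Lss (0.28, adjusted p = 0.00138) stayed higher in edgeR's test. Srebf2 was at 0.06 (adjusted p = 0.120). Of the other 16 enzymes, 1 was lower and 11 higher, with a median of 0.30, Tm7sf2 now lower (-0.90) and Sc5d higher (0.60, adjusted p = 1.8e-10). The log2 fold change of Usp9x itself was -2.09 after this step, since any group difference that tracks GC content or length is taken out with the trends. The part of the trend in the falls of Hmgcs1 and Idi1 was not tested further.

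The proteins that process SREBP and sense sterols were described over a list of 14 genes, all tested. Of these, 3 were lower and 5 higher, against 33.6% and 33.8% of all genes, and the median log2 fold change was 0.05. Scap, the sterol-sensing escort of SREBP, was at 60.2 and 59.6 CPM in shCtrl and at 78.2 and 80.3 CPM in shUSP9X. It was higher in both knockdown libraries (log2 fold change 0.40, adjusted p = 1.1e-06, edgeR). Insig2, which retains SCAP in the endoplasmic reticulum, fell from 93.1 and 98.0 to 65.3 and 64.5 CPM (log2 fold change -0.56, adjusted p = 1.9e-09). Insig1, the paralogue that SREBP itself induces, was at 77.0 and 81.8 CPM against 80.3 and 84.1 CPM, and its groups overlapped (adjusted p = 0.442). Srebf1, which encodes the sister factor SREBP1, also overlapped between the groups (log2 fold change -0.04, adjusted p = 0.488). Erlin2, a protein of the endoplasmic reticulum, rose by a log2 fold change of 0.56 (adjusted p = 9.3e-09). After the trends had been removed, the list held 1 lower and 9 higher genes, against 25.6% and 38.7% of all genes. The calls of Scap (0.37), Insig2 (-0.48) and Erlin2 (0.84) were among them.

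Of 22 genes of cholesterol uptake and movement, 19 were tested. They held 3 lower and 5 higher, against 33.6% and 33.8% of all genes, and the median was 0.00. Tmem97, the sigma-2 receptor that binds NPC1, rose by a log2 fold change of 0.85 (adjusted p = 2.8e-14), and by 0.57 with the trends removed, whereas Npc1, the lysosomal cholesterol exporter, was at 0.00 (adjusted p = 0.983). Stard4, a cytosolic sterol carrier, fell by 0.32 (adjusted p = 3.5e-05) and was at 0.21 with the trends removed (adjusted p = 0.00274). Osbpl8, a lipid transfer protein of membrane contact sites, fell by 1.46 on the log2 scale (adjusted p = 7e-14), and with the trends removed it was at -0.18 and did not pass (adjusted p = 0.0696). Mylip and Npc1l1 were among the genes that did not reach the filter.

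LXR, the nuclear receptor of oxysterols, and its targets in cholesterol efflux made a list of 12 genes, of which 9 were tested. Of those tested, 4 were lower and 2 higher, against 33.6% and 33.8% of all genes, with a median of -0.01. Rxra, the partner receptor of LXR, rose by a log2 fold change of 0.79 (adjusted p = 1.4e-11, edgeR). Nr1h2, which encodes LXRβ, was at 48.3 and 56.8 CPM in shCtrl and at 62.4 and 57.8 CPM in shUSP9X, nearly touching (0.20, adjusted p = 0.0186). Abca1, the cholesterol exporter, was at 41.9 and 41.7 CPM in shCtrl and at 24.1 and 31.2 CPM in shUSP9X (log2 fold change -0.61, adjusted p = 3.8e-06). Its sign turned when the trends were removed (0.43, adjusted p = 0.00024). Pltp, a phospholipid transfer protein, fell by 0.41 (adjusted p = 5e-04), and by 0.63 with the trends removed (adjusted p = 2e-06), and Nr1h3, Abcg1 and Apoc1 were not tested. The calls of this list depended on single libraries, with 2 genes lower and 1 higher without shCtrl replicate 1 and also without shUSP9X replicate 1, and 2 lower and 2 higher without shUSP9X replicate 2. The lower genes that lost their calls in all of these fits were Abcg4, a sterol exporter, and Lpcat3, a lysophospholipid acyltransferase, and without shUSP9X replicate 2 they were at -1.42 (adjusted p = 0.161) and -0.10 (adjusted p = 0.288, edgeR). Abcg4 was also not called without shCtrl replicate 2 (-1.335, adjusted p = 0.117). Both were called lower once the trends were removed, at -1.39 for Abcg4 and -0.34 for Lpcat3. Nr1h2 lost its call in the first pair of these fits (0.09, adjusted p = 0.276, and 0.14, adjusted p = 0.171, edgeR), with the trends removed (0.007, adjusted p = 0.937), in DESeq2 (adjusted p = 0.0868) and on log2(FPKM + 1) in limma (0.18, adjusted p = 0.0807).

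Fatty acid synthesis, the arm driven mainly by SREBP1, was described over 18 genes, of which 16 were tested. Among these, 6 were lower and 6 higher, against 33.6% and 33.8% of all genes, with a median of -0.01. Fasn, the fatty acid synthase, was at 432.7 and 443.7 CPM in shCtrl and at 692.3 and 720.5 CPM in shUSP9X (log2 fold change 0.69, adjusted p = 1.9e-15, edgeR). Acly, which supplies cytosolic acetyl-CoA to fatty acids and sterols alike, rose by 0.40 (adjusted p = 1.1e-09), and the stearoyl-CoA desaturase Scd1 rose by 0.29 (adjusted p = 6.4e-08). These genes were higher in both knockdown libraries, with and without the GC content and length trends. Other genes of the list went down. Elovl6, an elongase of long-chain fatty acids, fell from 91.9 and 100.1 to 34.8 and 38.8 CPM (log2 fold change -1.38, adjusted p = 7.7e-16). Mlxipl, which encodes the carbohydrate-responsive factor ChREBP, fell by 1.40 (adjusted p = 1.3e-06) at a low level of 8.27 CPM in shCtrl, and the acyl-CoA synthetase Acsl3 fell by 0.69 (adjusted p = 3.3e-11). With the trends removed these falls were -0.75 for Elovl6, -1.52 for Mlxipl and -0.23 for Acsl3, all still called, and Fasn was at 1.19 and Scd1 at 0.48. Gpam, a glycerol-3-phosphate acyltransferase, was among the higher genes (0.27) but not without shUSP9X replicate 2 (0.195, adjusted p = 0.0643, edgeR), and with the trends removed it was at 0.49 (adjusted p = 1.1e-06).

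The branches that use farnesyl and geranylgeranyl diphosphate for ubiquinone, dolichol and prenylated proteins held 14 tested genes. They counted 3 lower and 7 higher, against 33.6% and 33.8% of all genes, with a median of 0.17. Chm, an escort protein of Rab prenylation, fell from 39.3 and 30.2 to 6.93 and 5.28 CPM (log2 fold change -2.50, adjusted p = 1.6e-14, edgeR). Pggt1b, the specific subunit of the type I geranylgeranyl transferase, fell from 42.4 and 44.4 to 10.4 and 11.5 CPM (log2 fold change -1.99, adjusted p = 1.8e-15). Both transcripts are AT-rich (37.0% and 41.4% GC), and with the trends removed the values were -0.97 (adjusted p = 1.2e-06) and -0.87 (adjusted p = 3.3e-08). Rce1, the protease that trims prenylated proteins, rose by 0.62 (adjusted p = 3.8e-06), and by 0.34 with the trends removed (adjusted p = 0.00358). Fnta, the subunit shared by the protein farnesyl and type I geranylgeranyl transferases, was called higher at 0.17, but not without shUSP9X replicate 2 (0.16, adjusted p = 0.108), shUSP9X replicate 1 (0.19, adjusted p = 0.0543) or shCtrl replicate 2 (0.11, adjusted p = 0.152, edgeR). Fnta was at 0.02 and not called once the trends were removed (adjusted p = 0.738).

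Of 12 genes of cholesterol esters and oxysterols, 6 were tested. There were 4 lower and 0 higher, against 33.6% and 33.8% of all genes, and the median was -0.56. Cyp39a1, an oxysterol hydroxylase, fell from 10.3 and 9.17 to 2.58 and 2.97 CPM (log2 fold change -1.82, adjusted p = 8.9e-09, edgeR). Nceh1, a cholesteryl ester hydrolase, fell by 0.61 (adjusted p = 1.4e-10), and Hsd3b7, of bile acid synthesis, by 0.52 (adjusted p = 0.00321). With the trends removed Nceh1 was at -0.23, Cyp39a1 at -1.50 and Hsd3b7 at -0.77, all still lower by edgeR's test. Soat1, which esterifies cholesterol, was at 298.4 and 279.7 CPM in shCtrl and at 294.9 and 294.2 CPM in shUSP9X, with overlapping groups (log2 fold change 0.03, adjusted p = 0.567). On the FPKM scale its groups did not overlap, at 74.7 ± 0.815 FPKM in shCtrl and 97.1 ± 2.95 FPKM in shUSP9X (mean ± SD, n = 2 each), and limma on log2(FPKM + 1) gave 0.37 (adjusted p = 0.00037). With the trends removed its value was 1.00 (adjusted p = 4.1e-18), and without shCtrl replicate 1 it was 0.08 and passed the test (adjusted p = 0.0448, edgeR). Soat2, Lcat, Ch25h, Cyp7b1, Cyp46a1 and Hsd11b1 did not reach the filter. No list was tested as a set.

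**Figure D4:**
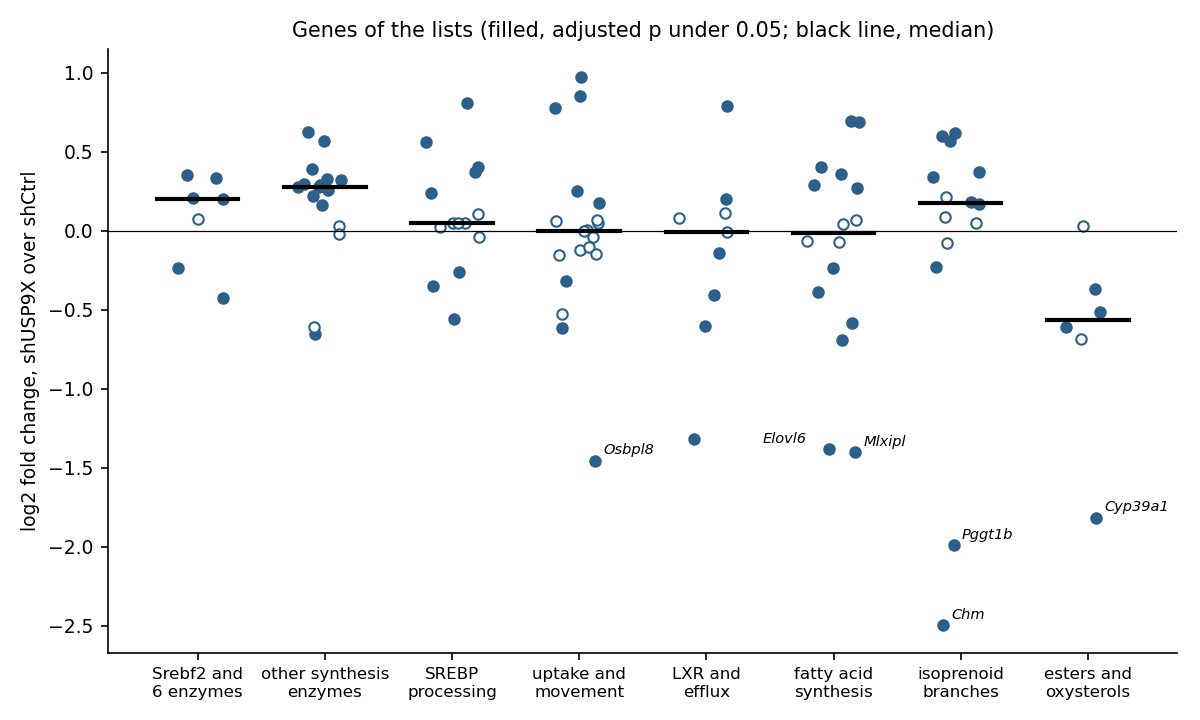
Log2 fold change of shUSP9X over shCtrl (vertical axis) for each tested gene of the 8 groups (horizontal axis), filled where the adjusted p is under 0.05, with a black line at the median of each group. The groups of Srebf2 and the 6 enzymes and of the other synthesis enzymes have medians of 0.20 and 0.27, and Chm and Pggt1b of the isoprenoid branches are the lowest genes of all groups.

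By likeness of profile, measured as the Euclidean distance between log2 CPM over the 4 libraries after each gene was centred on its own mean, the nearest of all genes to Srebf2 was Stat3 (distance 0.01). For the others they were Commd3 for Hmgcs1, Nudcd2 for Idi1, Rnaset2b for Fdps, Map2k4 for Fdft1, Ppme1 for Sqle and Jagn1 for Lss, at distances between 0.00789 and 0.0293. Each member was also compared with the 100 other tested genes of the members and lists. The nearest of these was Coq2 (0.039) for Srebf2, Acss2 (0.0529) for Hmgcs1, Nus1 (0.0572) for Idi1 and Lbr (0.0651) for Fdps. It was Erlin1 (0.0257) for Fdft1, Rabggtb (0.0501) for Sqle and Acat2 (0.0702) for Lss. With 4 libraries in 2 groups, such a profile holds little more than the direction and size of the change, and none of the members was the nearest gene of another.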

How the data were processed

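Total RNA of ID8 cells was enriched for mRNA and sequenced in 4 libraries, 2 for each group of the labels. The submitters' processing notes name fastp 0.18.0, Bowtie2 2.2.8, HISAT2, StringTie 1.3.1 and RSEM. The authors mapped the reads to GRCm38 and deposited, for each gene in each library, an estimated count without normalization and an FPKM value. A share of 6.395 to 6.69% of the counts was not whole, and all were rounded before the test planned for counts. Intervals cover the spread between libraries as edgeR models it.

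Counts were filtered with filterByExpr, scaled by TMM and compared in edgeR 4.0.16 under R 4.3.3 (quasi-likelihood, two-sided, no block), with Benjamini-Hochberg adjustment over 11448 genes. The smallest p of an exact permutation test of 2 against 2 libraries is 0.333, so none was used. Counts of same-group libraries differed by more than sampling noise (chi-square per gene 3.35 and 2.23). Coordinates, GC content and length came from GENCODE M21 for 99.84% of the genes tested. The offset took each library's loess trends (span 0.3) on GC content and length out of the counts. The procedures were tested on simulated data. DESeq2 1.42.0, limma 3.58.1 on log2 FPKM, other scalings and filters, a replicate block and each library left out were alternatives.

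The members and the 7 hand-written lists were chosen with earlier results of these data known. Genes named are Usp9x, the members, every tested enzyme of the synthesis list, the 3 largest changes of each other list (adjusted p under 0.05, mean of at least 1 CPM), 13 genes fixed by name and the nearest profiles. Some genes this rule names are not reported here, and they remain in the counts, medians and sums of their lists. Cell type markers and untested genes were listed by hand too, and the genes confined to 1 library were picked after the liver markers had been seen.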

Additional observations from a re-analysis of the deposited data

Results flagged for a closer look

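In genes outside the comparisons, shUSP9X replicate 2 held 635 counts of Alb, against 0 in both shCtrl libraries. It also held 18 genes with at least 20 counts that had at most 3 in each other library, most of them liver-secreted proteins such as Alb, Ahsg, Fga, Fgb and Fgg, together 0.00783% of its counts. The same rule found 1 gene in shCtrl replicate 1, 3 genes in shCtrl replicate 2 (Tyrp1 with 113 counts, Dct with 31 counts, both pigment cell genes, and Gm20517) and 0 genes in shUSP9X replicate 1. Their source was not tested.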

How the results depend on the processing

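With 2 libraries in a group, precision rests on the spread that edgeR shares across genes, and Tm7sf2 at about 2 CPM is limited by depth. Fdft1, Sqle and Lss kept their direction and their call in the 15 alternative fits. Without 1 library at a time, log2 fold changes ranged from 0.029 to 0.126 for Srebf2, -0.46 to -0.39 for Hmgcs1, -0.27 to -0.19 for Idi1, 0.15 to 0.26 for Fdps, 0.31 to 0.41 for Fdft1, 0.17 to 0.26 for Sqle and 0.25 to 0.43 for Lss. The lone library of a group was then assumed to vary like the other group. Srebf2 passed the test without shCtrl replicate 2 (0.13, adjusted p = 0.00249, edgeR) and with upper quartile scaling (0.10, adjusted p = 0.0277), over a range of 0.00249 to 0.981, and Fdps was no longer called without shUSP9X replicate 2 (0.15, adjusted p = 0.0846, edgeR).

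The GC content and length offset gave -0.014 for Hmgcs1, 0.32 for Idi1 and -0.10 for Fdps, 0 members lower, and a median of the members that lay 0.041 above that of all genes instead of 0.20. It reversed Pmvk (-0.27), Ggps1 (0.29), Sc5d (0.60), Abca1 (0.43), Insig1 (-0.005) and Stard4 (0.21). In the SREBP processing list it left 1 gene lower and 9 higher, and in the ester and oxysterol list it made 1 gene higher (Soat1). The offset together with the replicate block gave the same calls for the members and lists named here and close values, with a median 0.040 above that of all genes, 0.598 for Sc5d, 0.427 for Abca1, 0.287 for Ggps1 and -0.004 for Insig1.

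On the FPKM scale with a pseudocount of 1, and of 0.1, Pmvk was at -0.001 and -0.001, Sc5d at 0.034 and 0.035 and Npc1 at -0.023 and -0.026, the members' median lay 0.154 and 0.155 above that of all genes, and 1 gene of the LXR list and 1 of the ester list were higher. Calls were lost there for Lbr (0.047 and 0.048), Dhcr7 (0.085 and 0.087), Mvk (0.158 and 0.166) and Nr1h2 (0.177 and 0.182) and gained for Soat1 (0.374 and 0.378). With a pseudocount of 1, Ggps1 was at -0.37, Pggt1b at -0.92, Mlxipl at -0.91, Cyp39a1 at -1.04 and Hsd3b7 at -0.33, all still called. Sc5d was at 0.011 with upper quartile scaling, Npc1 at -0.027 and Soat1 at -0.002 with library size only, and Npc1 at -0.005 with at least 10 counts in each library. DESeq2 left 2 genes of the LXR list lower and 1 higher. Without 1 library at a time, Pmvk ranged from -0.028 to 0.096, Sc5d from -0.036 to 0.004, Srebf1 from -0.10 to 0.035, Npc1 from -0.013 to 0.032 and Soat1 from -0.014 to 0.083. The LXR list then held 2 to 3 genes lower and 1 to 2 higher, the ester list 0 to 1 higher, and the members' median lay 0.15 to 0.18 above that of all genes. By the study's call rule, applied to the edgeR fit, 0 members were lower and 0 higher, against 18.7% and 10.8% of all genes tested. The synthesis list then held 1 gene lower and 1 higher, and the SREBP processing list 0 lower and 1 higher. By the same rule the uptake list held 2 lower and 3 higher, and the LXR list 2 lower and 1 higher. Fatty acid synthesis held 3 lower and 2 higher, the isoprenoid list 2 lower and 2 higher and the ester list 2 lower and 0 higher. Where no cause follows from how an alternative is built, the cause was not tested.

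Replicate numbers in the labels gave no pairing, since same-numbered libraries deviated from their group means with a correlation of -0.0453. With the replicate block, 2 members were lower and 4 higher, as without it, and 7665 genes of the table were called against 7707. Of 675 values of the other 45 named genes under alternatives, 612 kept direction and call, 28 reversed, 28 lost the call and 7 gained it.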
